A study of Mus musculus with 2 samples.

Results

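Open chromatin was described at 79 protein-coding mouse genes whose symbol is Il followed by a digit, out of 21853 protein-coding genes of the GENCODE M21 annotation. They comprised 37 genes for interleukins (ligands), 38 for chains of interleukin receptors, and 4 others: the antagonists Il1rn and Il1f5, the binding protein Il18bp, and Il4i1, an amino acid oxidase induced by interleukin-4. The data were 2 ATAC-seq libraries, labelled biological replicates 1 and 2, of common myeloid progenitors from C57BL/6J male mice aged 5 to 6 weeks, each made from 50000 cells. Nothing in the labels says that the libraries came from separate animals, and both carry the same donor label, so the spread between them may be technical. ATAC-seq inserts sequencing adapters into accessible DNA with a transposase, and peaks of insertions mark open chromatin. The cells were untreated as far as the labels say, and no other cell type was assayed with them.

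Common myeloid progenitors are bone marrow cells that give rise to erythroid, megakaryocytic, granulocytic and monocytic lineages. Interleukins are secreted proteins that mature immune and stromal cells mostly make on stimulation, while progenitors depend on receptors for them. A receptor usually pairs a chain that binds 1 ligand with a chain shared by several ligands, and signals through JAK kinases and STAT factors or, in the interleukin-1 and interleukin-17 families, through adaptors that lead to NF-kB.

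A region is 1 or more overlapping peaks of the conservative list, which holds peaks that pass the irreproducible discovery rate (IDR), a measure of how well ranked peaks recur between libraries. For no stated reason that list is longer, at 102186 peaks, than the series list labelled IDR-thresholded, at 99419. Genes with a region no more than 1 kb from an annotated start were counted as having a promoter region. Other regions are distal and were given to the nearest protein-coding start within 100 kb, which does not show which gene a region acts on. Distances run from a region's summit to the gene's nearest start. The 79 genes had 270 of the 67395 regions: 40 at promoters and 230 distal, the latter including 2 that reach within 1 kb of a start of Il17d or Il18 while their summits lie farther away. Signal is the deposited value of a region's strongest peak. Its scale is not stated, and it is used here only to order regions within a list.

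Each library also has its own IDR-thresholded list, of 47535 regions in replicate 1 and 37620 in replicate 2. Signals of different lists may not share a scale. Among 10 marker genes of myeloid progenitors 9 had a promoter region, including Kit, Cd34 and Cebpa, and Gata2 had none but 4 distal regions, beside 60.8% of all genes with a promoter region. Another of the 9, Mpo, was in neither own list. Of 5 markers each, none of the T cell or neutrophil genes had one, against 1 for B cells (Pax5), 1 for NK cells (Prf1), 2 for basophils and mast cells (Mcpt8 and Cpa3) and 3 for macrophages (Cd68, Adgre1 and C1qc), a share close to that of all genes. A smaller fraction of cells with a region open cannot be told apart from less openness in every cell.

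Sequences at distal regions come first. Each is 201 bases centred on the summit of a gene's strongest distal region, for the ligand and receptor genes with the most such regions. They were not chosen by signal, and only the Il1r1 region is among the 10 strongest distal regions of members. Il1rl1 and Il17ra had as many distal regions as Il20rb and are not shown. The sequences are given on the plus strand of GRCm38.p6 (mm10), with matches to the searched motifs in capitals.
Il12a, chr3:68771753-68771953: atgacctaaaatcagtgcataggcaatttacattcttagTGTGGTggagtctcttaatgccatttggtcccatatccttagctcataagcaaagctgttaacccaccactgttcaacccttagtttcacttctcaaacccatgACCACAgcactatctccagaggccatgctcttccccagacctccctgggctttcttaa
Il16, chr7:83717477-83717677: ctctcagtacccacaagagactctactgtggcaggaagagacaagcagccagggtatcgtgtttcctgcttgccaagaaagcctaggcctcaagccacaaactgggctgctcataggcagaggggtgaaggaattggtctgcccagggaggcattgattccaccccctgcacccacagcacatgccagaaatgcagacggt
Il12b, chr11:44356272-44356472: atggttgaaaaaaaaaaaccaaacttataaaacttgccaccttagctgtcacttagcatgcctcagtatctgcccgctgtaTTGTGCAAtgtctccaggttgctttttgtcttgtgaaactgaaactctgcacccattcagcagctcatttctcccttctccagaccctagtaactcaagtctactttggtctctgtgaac
Il21r, chr7:125630382-125630582: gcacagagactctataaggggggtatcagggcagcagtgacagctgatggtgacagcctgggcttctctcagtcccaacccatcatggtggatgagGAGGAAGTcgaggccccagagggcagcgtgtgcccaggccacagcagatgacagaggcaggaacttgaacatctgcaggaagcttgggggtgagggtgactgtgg
Il1r1, chr1:40230465-40230665: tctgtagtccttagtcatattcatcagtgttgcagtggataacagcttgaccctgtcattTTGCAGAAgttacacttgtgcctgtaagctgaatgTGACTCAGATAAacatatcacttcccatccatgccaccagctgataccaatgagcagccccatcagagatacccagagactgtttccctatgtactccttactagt
Il20rb, chr9:100400446-100400646: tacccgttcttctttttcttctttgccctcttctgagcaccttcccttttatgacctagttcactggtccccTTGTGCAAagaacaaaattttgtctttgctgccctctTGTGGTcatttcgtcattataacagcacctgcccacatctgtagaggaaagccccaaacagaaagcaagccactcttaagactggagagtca
The letters searched, on both strands, were GAGGAAGT for PU.1, CCGGAAGT for other ETS factors, TGTGGT for RUNX, AGATAA or TGATAA for GATA factors, TTGCNNAA for C/EBP, TTCNNNGAA for STAT, TGA then any base then TCA for AP-1, GGGANNTTC for NF-kB, and the CTCF motif by name. The Il12a region, 80.4 kb downstream of that gene's start, holds 2 RUNX matches, at bases 40 to 45 and 144 to 149. A RUNX match occurs in 29.8% of all 52606 distal windows of this length. The Il1r1 region, in an intron of its gene, holds a C/EBP match (10.9% of distal windows), an AP-1 match (9.50%) and a GATA match (22.1%), of which the last 2 overlap by 1 base. The Il12b region holds 1 C/EBP match and the Il20rb region a C/EBP and a RUNX match. The Il21r region, in an intron of Il21r, holds a PU.1 match (9.56% of distal windows). The Il16 region holds none of these letters. A match is a description of the letters and no evidence of binding.

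The promoters shown next, 250 bases before to 50 after the start on the gene's own strand, are those of the 2 ligands and 2 receptors with the strongest promoter regions that reach the window, from RefSeq on GRCm38.p6. RefSeq promoter entries matched 62 of the 79 genes.
Il6, chr5:30012864-30013163: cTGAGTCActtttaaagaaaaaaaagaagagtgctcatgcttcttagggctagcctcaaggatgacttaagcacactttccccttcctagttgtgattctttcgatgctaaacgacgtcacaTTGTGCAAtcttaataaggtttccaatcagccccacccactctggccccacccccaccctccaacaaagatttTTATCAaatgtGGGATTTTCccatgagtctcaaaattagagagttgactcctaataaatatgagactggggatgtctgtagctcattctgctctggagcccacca
Il18, chr9:50554450-50554749: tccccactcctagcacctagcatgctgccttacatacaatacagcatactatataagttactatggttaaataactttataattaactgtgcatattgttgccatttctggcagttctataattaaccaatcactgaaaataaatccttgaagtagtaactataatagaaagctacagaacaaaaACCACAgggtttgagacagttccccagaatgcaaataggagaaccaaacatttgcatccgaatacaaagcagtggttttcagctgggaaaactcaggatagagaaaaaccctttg
Il1rap, chr16:26581455-26581754: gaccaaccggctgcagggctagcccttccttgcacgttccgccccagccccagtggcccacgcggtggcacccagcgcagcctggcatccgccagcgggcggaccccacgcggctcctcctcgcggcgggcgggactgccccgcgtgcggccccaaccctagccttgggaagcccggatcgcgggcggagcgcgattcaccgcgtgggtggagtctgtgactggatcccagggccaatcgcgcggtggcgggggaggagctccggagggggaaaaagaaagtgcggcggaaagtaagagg
Il12rb2, chr6:67376139-67376438: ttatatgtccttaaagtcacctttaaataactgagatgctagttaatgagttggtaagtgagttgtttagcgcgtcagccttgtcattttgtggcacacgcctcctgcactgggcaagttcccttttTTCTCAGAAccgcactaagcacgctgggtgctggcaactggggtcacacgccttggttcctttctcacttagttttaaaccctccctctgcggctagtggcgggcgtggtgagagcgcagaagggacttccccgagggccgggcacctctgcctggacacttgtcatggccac
The Il6 promoter holds an AP-1, a C/EBP, a GATA and an NF-kB match, the last GGGATTTTC at bases 207 to 215. C/EBP beta was first described as a nuclear factor for this gene, and NF-kB is a well known activator of it. Among the 32851 RefSeq promoter windows on these chromosomes an NF-kB match is present in 3.94%, a C/EBP match in 10.8%, an AP-1 match in 7.81% and a GATA match in 18.6%. The Il12rb2 promoter holds a STAT match, which 8.30% of windows have, and the Il18 promoter a RUNX match, which 16.8% have. The Il1rap promoter is rich in C and G and holds none of the letters searched. The Il6 and Il18 windows end before the summits of their regions, at chr5:30013262 and chr9:50554885. No searched motif lies within 50 bp of the Il6 summit, and a RUNX match lies within 50 bp of the Il18 summit.

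Receptor genes had promoter regions more often than ligand genes. A promoter region was present at 22 of 38 receptor genes (57.9%) and at 10 of 37 ligand genes (27.0%), against 60.8% of all protein-coding genes. In the own list of replicate 1 the shares were 47.4% of receptors and 16.2% of ligands, against 56.3% of all genes. Replicate 2 gave 44.7% and 18.9%, against 52.0%. The difference of 30.9 percentage points between receptors and ligands was 31.2 in replicate 1 and 25.8 in replicate 2, an SD of 3.77 between the libraries. Genes are not replicates, so no test was made over them. Of the 4 other genes, Il1rn, Il18bp and Il4i1 had a promoter region and Il1f5, which blocks the interleukin-36 receptor, had none. Il1rn (7.79, at an internal start 8.43 kb from its first) and Il18bp (4.36) were in neither own list. The strongest Il4i1 region also lies within 1 kb of starts of Atf5 and Nup62. Each own list held a promoter region at 1 of the 4 genes.

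**Figure D1:**
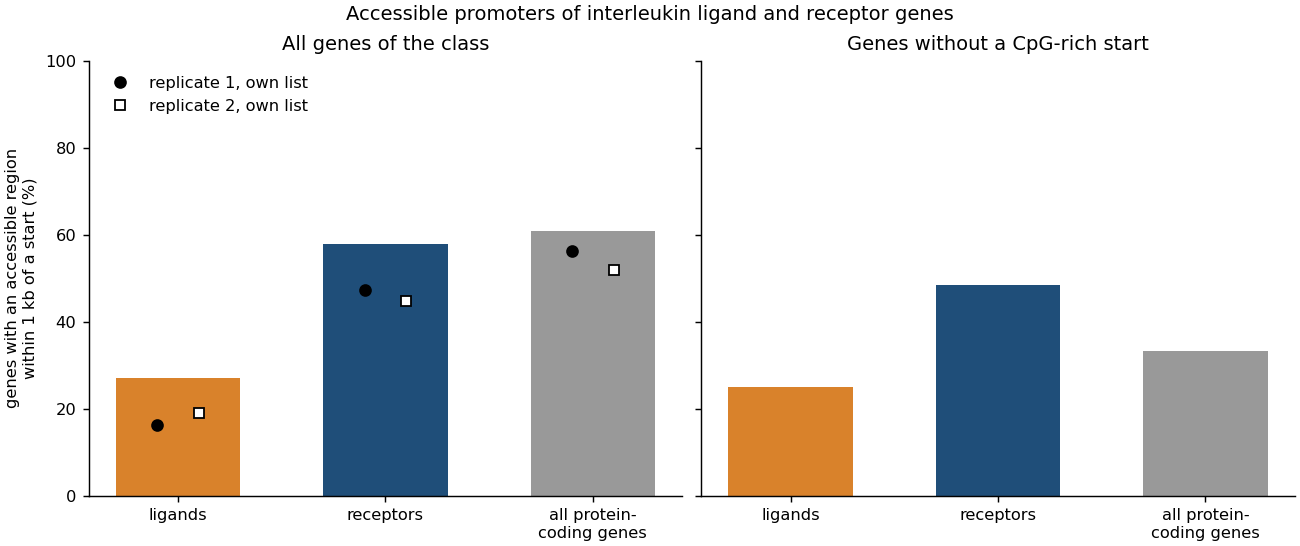
Share of genes (percent, vertical axis) with an accessible region within 1 kb of a start, for 37 ligands, 38 receptors and 21853 protein-coding genes; bars are the conservative list, circles and squares the own lists of replicates 1 and 2. Ligands stood at 27.0% and receptors at 57.9% beside 60.8% of all genes, and among genes without a CpG-rich start (right) at 25.0% and 48.4% beside 33.3%.

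Few of these genes have CpG islands at their starts. Only 1 ligand gene (2.70%), Il17d, and 7 receptor genes (18.4%) had a CpG-rich start, against 49.8% of all genes; CpG-rich means at least 50% GC and an observed over expected CpG ratio of at least 0.6 in the 500 bp on each side. Such starts were open at all 9 members that have them and at 88.5% of all genes that have them. Among genes without one, 9 of 36 ligands (25.0%) and 15 of 31 receptors (48.4%) had a promoter region, against 33.3% of all such genes. In the conservative list receptors therefore stood slightly below all genes over the whole class and above them among genes with CpG-poor starts. Ligands stood below in both. The split by CpG content was not made in the own lists, and 3 of the 15 receptors (Il10ra, Il18r1 and Il1rl2) were in neither of those. Receptor genes had a median of 2.00 annotated starts and ligand genes 1.00, so receptors offered more places to meet a region. Counting the most upstream start alone, 20 receptors (52.6%) and 9 ligands (24.3%) had a region there, against 57.3% of all genes. The part of CpG content or start number in the difference was not tested.

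The ligands with the strongest promoter regions were Il6 and Il12b. Il6, a cytokine of the acute phase response, had a promoter signal of 12.9, above 73.6% of all genes with a promoter region. Replicate 1 gave 12.3 and replicate 2 gave 11.1. Il12b, which encodes the p40 chain shared by interleukin-12 and interleukin-23, had 12.6, with 11.3 and 11.8 in the replicates. These 2 were the ligands above 10.4, the median over all genes with a promoter region of each gene's strongest one. The Il12b region, however, had its summit 948 bp upstream of the start, and the region did not reach the 250 bases before it.

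Il18 encodes a cytokine that is cleaved by the inflammasome. Its promoter signal was 10.01, with 9.86 and 9.47 in the replicates, and its summit lay 58 bp inside the gene. That gene lies close to Bco2, whose start is also within 1 kb of this region. Il7, the survival factor of lymphoid progenitors, had 8.59, with 8.16 and 7.47. Both libraries held all of these regions in their own lists.

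At Il4, Il16, Il6, Il7 and Il12a the summit was nearest to an internal start. It lay 148 bp from the most upstream start at Il6, 892 bp at Il7 and 1.63 kb at Il12a. Il4, the defining cytokine of type 2 immunity, had a signal of 8.46 (8.15 and 8.24 in the replicates) in an intron, 1.27 kb downstream of the most upstream start, which the region's edge comes within 1 kb of. Il16, a chemoattractant released from a long precursor protein, had 7.59 (7.28 and 7.30) at a start 84.5 kb inside the gene. Il15, which supports NK cells, had a signal of 3.77 at its start and appeared in the own list of replicate 2 (4.74) but not of replicate 1. Il11, Il17d and Il12a had signals of 5.58, 5.02 and 4.74 and were in neither own list. Their summits lay 1048, 1077 and 848 bp from the nearest start, the one near Il11 inside an intron of Tmem190. Within 100 bp of a start lay the summits of 6 of the 10 open ligand genes and 18 of the 22 open receptor genes. That count was not made over all genes, so whether either share is unusual is not known.

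The other 27 ligand genes had no promoter region. They include Il1a and Il1b, the interleukin-1 ligands of macrophages, all 5 ligands of the interleukin-10 family, and both common beta chain ligands, Il3 and Il5. They also include Il2, Il9, Il13 and Il21, cytokines of T cells, Il33, and Il34, the second ligand of the CSF1 receptor. By family, 4 of 7 interleukin-6 and interleukin-12 ligands had a promoter region (2 in each own list), beside 60.8% of all genes. Of the common gamma chain ligands, with Il13 grouped among them, it was 3 of 7 (2 in replicate 1 and 3 in replicate 2). In the interleukin-1 and interleukin-17 families it was 1 of 8 and 1 of 6.

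The 5 strongest receptor promoters were those of Il1rap, Il12rb2, Il6st, Il18rap and Il1r1. Il1rap, the accessory chain of the receptors for interleukin-1, interleukin-33 and interleukin-36, had the strongest promoter signal of all members, 13.7, above 79.9% of genes with a promoter region, with 12.3 and 13.4 in the replicates. Il12rb2, the signalling chain for interleukin-12, had 13.6 (11.8 and 12.9). Il6st, which encodes gp130, the chain shared by interleukin-6, interleukin-11 and related cytokines, had 13.6 (12.3 and 13.2). Il18rap, the accessory chain for interleukin-18, had 13.4 (11.1 and 11.5), and Il1r1, the signalling receptor for interleukin-1, had 12.5 (11.9 and 10.9). All 5 summits lay within 100 bp of a start, were in both own lists, and were above the median of 10.4, which no other receptor reached.

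The next in order were lower. Il2rg, the common gamma chain, had 9.34 and was in the own list of replicate 1 (9.70) but not of replicate 2, and its region is shared with the start of the overlapping gene model Gm20489. Il27ra, the binding chain for interleukin-27, had 9.33 (9.44 and 7.76). Il1r2, the decoy that binds interleukin-1 without signalling, had 9.21 (8.58 and 8.49) at an internal start 11.9 kb from its first. Il10rb, shared by interleukin-10 and interleukin-22, had 8.92 (8.97 and 6.95), and Il21r had 8.51 (7.30 and 9.26). Il20ra, a chain for interleukin-19 and interleukin-20, had 8.14 (6.89 and 8.47).

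The ligand-binding chains Il6ra, Il4ra, Il15ra and Il11ra1 had promoter signals between 6.95 and 7.57, in both own lists. The Il11ra1 region lies at an internal start 60.5 kb from the gene's first. Il11ra1 has a near-identical copy, Il11ra2, without any region, and reads from the copies may not have been placed uniquely. Of the interleukin-17 receptors, Il17rb (8.42), Il17re (8.34), Il17rd (7.61) and Il17ra (4.78) had a promoter region and Il17rc had none. The Il17rb region was in the own list of replicate 1 alone and the Il17re region in that of replicate 2 alone. The strongest Il17rd region, at an internal start, was in neither own list, while its other promoter region (7.34), at the first start, was in both (6.64 and 6.90). The Il17ra region was in the own list of replicate 2 (5.03), and replicate 1 had another region near that start (4.96). The Il17rb region also lies at the start of Chdh, and the Il17ra summit lay 958 bp inside the gene. Il10ra, Il18r1 and Il1rl2, the interleukin-36 receptor, had signals of 6.66, 6.07 and 5.51 and were in neither own list. Those 3 receptors, like the 3 ligands without support in an own list, were in the pseudoreplicated lists of both libraries, which are longer, with 94841 and 82885 regions.

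**Figure D2:**
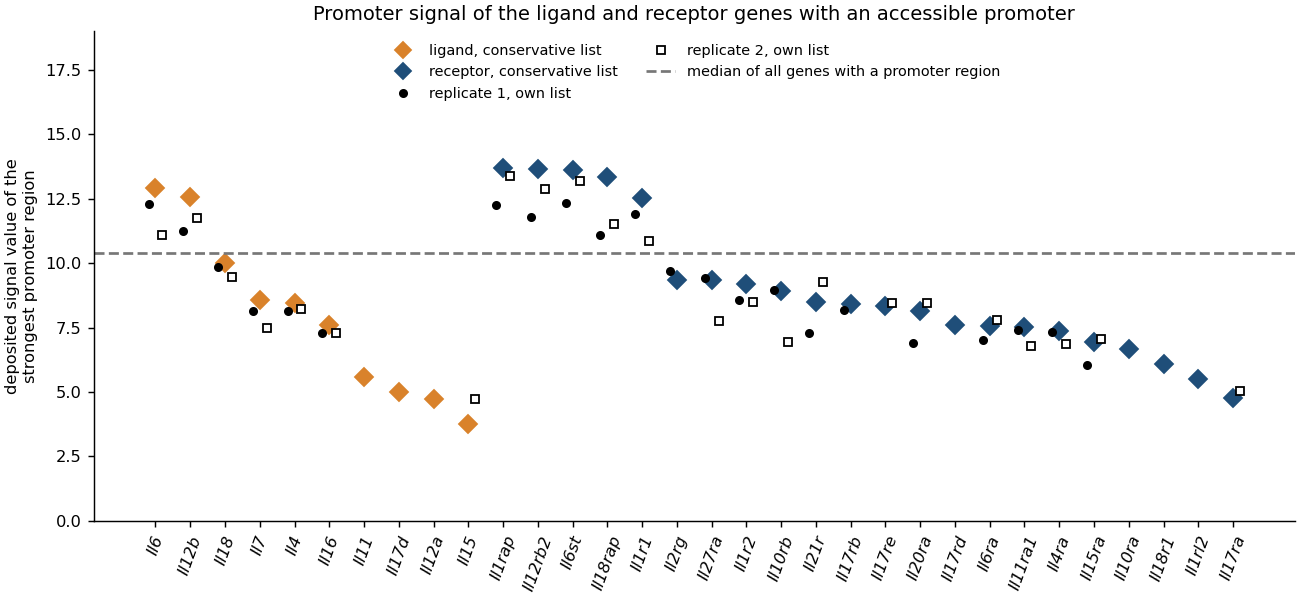
Deposited signal of the strongest promoter region (vertical axis, scale not stated) for the 10 ligands and 22 receptors that have one; diamonds are the conservative list, circles and squares the own lists of replicates 1 and 2, and the dashed line the median of all genes with a promoter region, 10.4. Il6, Il12b, Il1rap, Il12rb2, Il6st, Il18rap and Il1r1 lie above the line, and 7 genes have no own-list value for that region.

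Genes downstream of the receptors were examined in the same way, beside the 60.8% of all genes with a promoter region (56.3% in replicate 1 and 52.0% in replicate 2). All 11 JAK and STAT genes examined had a promoter region (10 in replicate 1 and 8 in replicate 2). Signals ran from 4.54 at Jak3, the kinase paired with the common gamma chain, to 17.3 at Stat2. Jak3 was in neither own list. All 12 genes for adaptors and kinases of the interleukin-1 and interleukin-17 receptors had one in the conservative list and in both own lists, among them Myd88 (11.7), Irak2 (18.4) and Traf6 (15.1). Of 10 receptor chains under other symbols 6 had one, close to the share of all genes, including Csf2rb (9.05), the common beta chain used by interleukin-3 and interleukin-5, whose near copy Csf2rb2 (11.9) may share reads with it, and Ebi3 (9.97), a partner chain of interleukin-27. Of 9 related cytokines 3 had one: Csf3 (10.8), Ctf1 (5.60) and Osm (4.51). None was in both own lists, Csf3 being in that of replicate 1 only and Ctf1 and Osm in that of replicate 2 only. Csf2, Lif and Ifng had none but 6, 7 and 8 distal regions.

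Both classes had more distal regions per gene than the average gene. Ligand genes had 106 distal regions, a mean of 2.86 ± 3.40 per gene (SD over 37 genes), and receptor genes 122, a mean of 3.21 ± 2.89 (SD over 38 genes). Over all genes the mean was 2.06 and the median 1.00, against medians of 2.00 for ligands and 3.00 for receptors. At least 1 distal region was present at 25 ligands (67.6%) and 30 receptors (78.9%), against 60.3% of all genes. Receptors had 0.346 more distal regions per gene than ligands, 0.560 more in the own list of replicate 1 and 0.701 more in that of replicate 2, an SD of 0.100 between the libraries.

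The number depends on how much sequence is closest to a gene. Per 100 kb of sequence nearest to their starts, ligands had 4.73 distal regions and receptors 4.12, against 2.92 for all genes. The median length of that sequence was 43.9 kb for ligands, 58.8 kb for receptors and 43.6 kb for all genes. In their own gene lay 53 of the 122 receptor regions (43.4%) and 31 of the 106 ligand regions (29.2%). Receptor genes are longer, with a median of 35.6 kb against 7.36 kb. The own-gene share and gene length were not counted over all genes, and the part of gene length in the difference was not tested.

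Distal regions without a promoter region were common. Of the 27 ligands without a promoter region 18 (66.7%) had at least 1 distal region, and of the 16 such receptors 12 (75.0%), against 44.2% of all genes without one. Those ligands had a mean of 2.11 distal regions and those receptors 2.69, against 1.18 for all such genes. No region at all was found at 9 ligands: Il3, Il17c, Il17f, Il20, Il23a, Il24, Il25, Il1f6 and Il1f8. The same held for 4 receptors: Il2rb, the beta chain for interleukin-2 and interleukin-15, the decoy Il13ra2, the neuronal gene Il1rapl1, and Il11ra2.

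**Figure D3:**
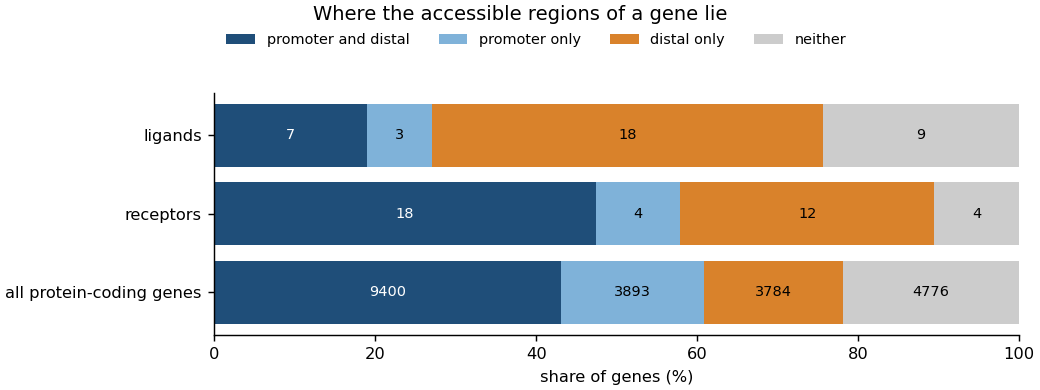
Share of genes (percent, horizontal axis) with promoter and distal regions, promoter regions only, distal regions only, or neither, with the number of genes in each segment. Distal regions only were present at 18 of 37 ligands and 12 of 38 receptors, against 3784 of 21853 genes.

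Among ligands, Il12a, which encodes the p35 chain of interleukin-12, had the most distal regions, 16, and the own lists gave it 9 in replicate 1 and 7 in replicate 2. They span from 52.5 kb upstream to 87.4 kb downstream, 15 of them outside the gene, with signals from 3.82 to 13.4. The strongest, whose sequence is printed above, was in the own list of replicate 2 (12.4) but not of replicate 1. The next, 68.2 kb downstream (13.0) and 13.5 kb upstream (12.6), were in both. Il12b had 8, 7 of them upstream, the strongest 43.7 kb away (11.2, with 9.19 and 8.93 in the replicates). Another lay 9.56 kb upstream (9.85, with 8.26 and 9.15).

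Il16 had 10 distal regions, all within its own long gene, 4 of them in both own lists and the strongest at 11.4 (10.5 and 9.56). Il1b had 7, of which 4 were in both own lists, although its start had none. The 3 nearest to the gene lay 10.7 kb downstream (15.01, with 13.0 and 13.4), 2.31 kb upstream (13.0, with 11.7 and 12.9) and 2.83 kb inside the gene (9.17, with 8.82 and 8.92). Il1a, its neighbour, had 2, both in both libraries, the stronger 28.2 kb upstream (13.5, with 12.4 and 12.6). Il17b also had 7, with the strongest 21.3 kb upstream (13.6, with 11.2 and 13.4).

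Of ligands best known from T cells, Il3, Il4 and Il17f had no distal region. Il17a had 1, at 23.7 kb downstream (11.1, with 8.65 and 9.88), and those named next had several. Il21 had 5, the strongest 28.3 kb downstream (14.9, with 14.5 and 13.3). Il2 had 4, the strongest 47.5 kb upstream (11.9), which was in the own list of replicate 2 (11.3) only. Il22 had 4, the strongest 26.0 kb upstream (11.0) and in both own lists. Il9 had 3 within 6.71 kb downstream, all in both lists and the strongest at 12.3. Il10, an inhibitory cytokine, had 4, of which 3 were in both lists and the strongest (12.0, with 10.2 and 11.0) lay 18.4 kb downstream.

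At the type 2 cytokine cluster of Il4, Il13 and Il5 the signals were lower. Il13 had 3 distal regions, 2 of them in introns of Rad50, the gene that holds the locus control region of this cluster in T cells. Those 2 had signals of 8.17 and 5.67, the first in the own list of replicate 1 only (8.23) and the second in neither own list. Il5 had 3 within 17.0 kb downstream, with signals from 7.52 to 8.48. The whole cluster, 122 kb, held 5 regions, and the strongest (14.3) lay at the start of Rad50 and not at a cytokine gene.

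Il33, an alarm cytokine of barrier tissue, had 3 distal regions, and the strongest (15.6, with 13.8 and 12.6) lay in an intron and holds a CTCF match within 50 bp of its summit. Il15 had 4 in its own introns, from 8.68 to 9.96, all in both lists. Il6 had 4, none of them in both lists and the strongest at 9.38, although its promoter region was the strongest of any ligand. Il17d had 5 in its first 13.1 kb, of which 1 (11.5, with 10.1 and 11.4) was in both lists. Il1f9, an interleukin-36 ligand, had 4, of which 1 (12.1, with 11.0 and 12.5) was in both. Il27 and Il18 had 2 each, in neither own list, and Il1f10 had 2, in the own list of replicate 1 only.

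**Figure D4:**
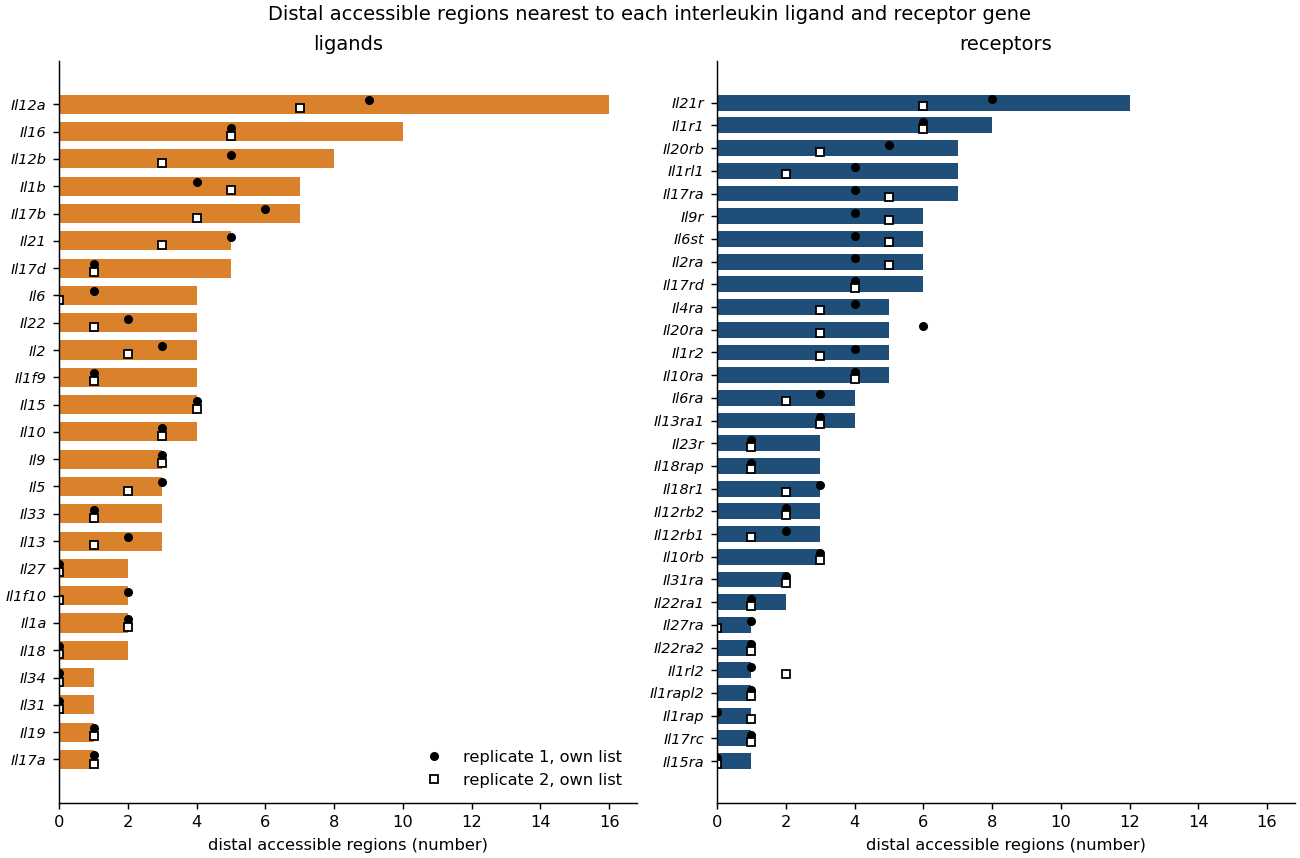
Number of distal regions (horizontal axis) of the 25 ligands and 30 receptors that have at least 1; bars are the conservative list, circles and squares the own lists of replicates 1 and 2. Il12a with 16 and Il21r with 12 have the longest bars, and most genes have fewer regions in each own list; an own list can exceed the bar, as at Il20ra and Il1rl2, since its regions were merged and assigned separately.

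Among receptors, Il21r had the most distal regions, 12, of which 6 were in both own lists. The strongest lay in its own intron (13.2, with 12.5 and 12.8), and the next, 40.5 kb downstream in an exon of Gtf3c1 (11.9, with 10.7 and 12.0). Il21r and its neighbour Il4ra, which both pair with the common gamma chain, held 14 regions in 81.5 kb, or 17.2 per 100 kb, against 2.47 over the genome. Of these 9 were in both own lists. Il1r1 had 8, 7 of them within the gene, and the strongest of these (15.1, with 12.8 and 15.02) is the one printed above.

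Several receptors combined strong distal regions with no promoter region. Il2ra (CD25), the high-affinity chain for interleukin-2, had 6, 5 of them in the gene, led by 15.6 (14.7 and 14.2) at 21.3 kb from its start. Another lay 5.53 kb upstream (14.1, with 12.7 and 14.2). Il9r had 6, with the strongest distal region of all members, 16.8 (14.5 and 15.8), 37.8 kb downstream. That region is above 98.1% of all distal regions and holds a CTCF match. Il13ra1, a chain for interleukin-4 and interleukin-13, had 4, led by 15.7 (14.3 and 13.1) at 29.0 kb upstream.

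Il1rl1 (ST2), the receptor for interleukin-33 on mast cells and type 2 lymphoid cells, had 7, all upstream, of which 2 were in both lists (12.7, with 11.0 and 11.8, and 10.1, with 7.63 and 9.58). Il20rb had 7, all downstream and 6 of them outside the gene, with the strongest 86.2 kb away (13.3, with 10.8 and 12.4). At that distance the nearest-start rule says least about the gene. Il17ra had 7 with signals from 3.19 to 9.01, and Il6st and Il17rd had 6 each, led by 12.2 (8.38 and 12.7) and 13.5 (11.2 and 13.3).

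The 10 strongest distal regions had signals from 13.6 to 16.8 and all were in both own lists. They belonged to 6 positions at receptors (Il9r, Il13ra1, Il2ra with 2, Il1r1 and Il12rb2) and 4 at ligands (Il33, Il1b, Il21 and Il17b). Of these 4 hold a searched motif within 50 bp of the summit. A CTCF match lies at 3, Il9r, Il33 and Il12rb2, and is present at 7.94% of all distal regions. The Il12rb2 region also holds a GATA match, and the Il1r1 region AP-1, C/EBP and GATA matches. The share among equally strong regions of other genes was not counted. Of the distal regions at or above the 90th percentile of signal, members held 6 ligand regions (5.66% of the ligand regions) and 13 receptor regions (10.7%), against 9.29% of the regions of all genes.

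The interleukin-1 receptor cluster lines up Il1r2, Il1r1, Il1rl2, Il1rl1, Il18r1 and Il18rap over 478 kb. It held 30 regions, or 6.28 per 100 kb, against 2.47 over the genome. Of these 6 were at promoters, and 15 were in both own lists, near the 50.6% of all regions. Of its 6 genes 5 had a promoter region, against 60.8% of all genes, Il1rl1 being the exception, with Il1r1 and Il18rap the strongest. The promoter regions of Il1rl2 and Il18r1 were in neither own list. The cluster of interleukin-1 ligands on chromosome 2, from Il1f8 to Il1rn, held 8 regions in 198 kb, 4.03 per 100 kb, of which 1 was in both own lists. The interleukin-10 cluster of Il24, Il20, Il19 and Il10 held 3 in 143 kb, or 2.10 per 100 kb. The pair of Il17a and Il17f held 1.67 per 100 kb. Both are below the genome value, which also counts sequence far from any gene.

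**Figure D5:**
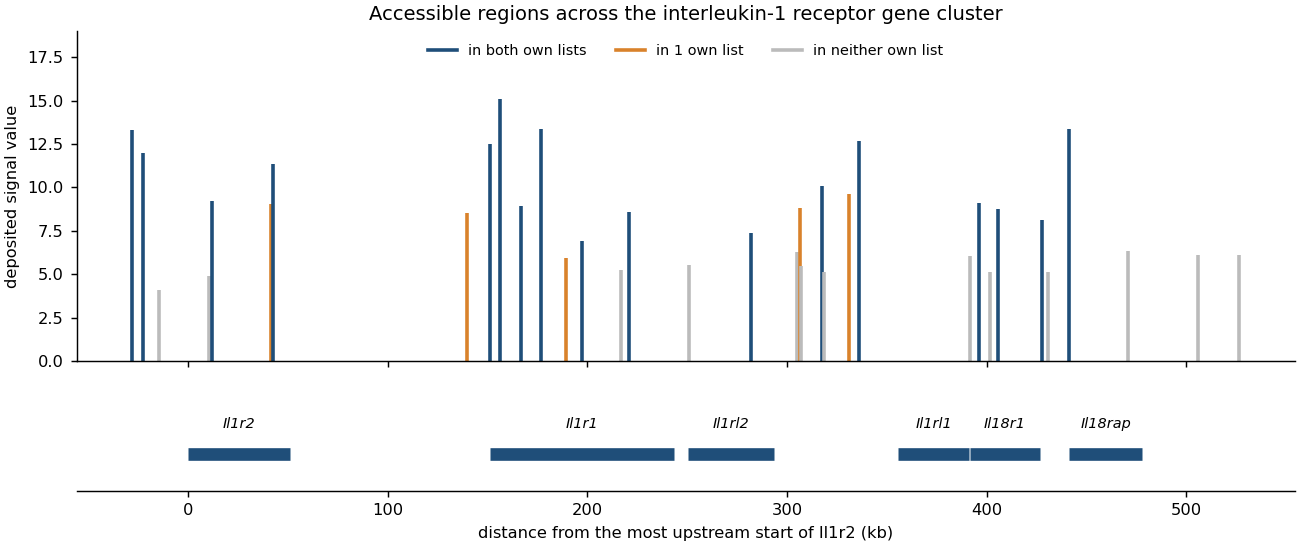
Deposited signal (vertical axis, scale not stated) of accessible regions along the interleukin-1 receptor cluster and its flanks, by distance from the most upstream start of Il1r2 (kb, horizontal axis), with gene spans beneath; colour shows whether a region was in both, 1 or neither of the own lists. The tallest line, 15.1, stands in Il1r1, and the 3 downstream of the Il18rap promoter are in neither own list.

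A larger share of receptor than of ligand distal regions was found in both replicates, with intervals that overlap. Both own lists held 70 of 122 receptor distal regions (57.4%, exact 95% binomial interval 48.1 to 66.3) and 45 of 106 ligand distal regions (42.5%, interval 32.9 to 52.4), against 44.4% of all distal regions. The intervals cover counting error only and treat regions as independent. At promoters both lists held 22 of 40 member regions (55.0%, interval 38.5 to 70.7), against 73.0% of all promoter regions. The median promoter signal was 8.03 for ligands and 8.38 for receptors, against 10.4 for all genes. Median distal signals were close to that of all genes: 7.93 for ligands and 8.26 for receptors, against 8.05.

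RUNX, GATA and PU.1 letters within 50 bp of distal summits had shares near those of all distal regions. A RUNX match was present at 50 of 230 member regions (21.7%, against 20.3% of all distal regions), a GATA match at 12.2% (12.9%) and a PU.1 match at 8.26% (6.93%). CTCF matches were present at 9.43% of ligand and 4.92% of receptor regions, against 7.94% of all. NF-kB matches were present at 4 ligand regions (3.77%) and 1 receptor region (0.820%), against 1.20% of all. At promoters a RUNX match was present at 7 of 40 member regions (17.5%, against 6.69% of all promoter regions). A STAT match was present at 3 (7.50%, against 1.68%) and a PU.1 match at none (2.56% of all). CpG-rich starts are rarer among members (11.4%) than among all genes (49.8%), and the part of this in the promoter shares was not tested.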

How the data were processed

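The authors deposited peak lists on mm10 for 2 ATAC-seq libraries of common myeloid progenitors. The signal column of the deposited lists has no stated scale, and served only to order and describe regions within 1 list. What aligned the reads, called the peaks or shifted reads to the transposase cut is not given in the sources used here. No list holds read counts, which leaves the depth unknown and allows no count test.

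On the autosomes and on X and Y, overlapping peaks were joined into 1 region, represented by its highest-signal peak. Regions were set against the starts of GENCODE M21 protein-coding transcripts, which was tested on simulated positions. A replicate held a region when its own IDR-thresholded list met it by at least 1 bp, so neighbouring regions can take the same replicate value. Motifs were searched by letters in the GRCm38.p6 sequence. Python 3.11.15, NumPy 2.4.6, SciPy 1.17.1, pysam 0.24.0, samtools 1.23.1 and matplotlib 3.10.9 were used.

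The members, the pathway and marker lists and the comparisons were chosen with earlier results of these data known. Named in full are ligands with a promoter region or at least 2 distal regions, the 10 receptors with most distal regions, the 10 strongest promoters and the 10 strongest distal regions. Receptors that the rule for members leaves out, 3 in number, are not reported here. Alternatives were the IDR-thresholded and replicated lists of the series, the upper 50% of regions by signal, each library's own list, another grouping of antagonists and decoys, other windows and distances, and stricter or looser sharing. Counting the most upstream start alone was added after seeing the data.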

Additional observations from a re-analysis of the deposited data

How the results depend on the processing

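Receptors kept a higher share of open promoters than ligands in every alternative run, and more distal regions per gene. Per 100 kb of nearest sequence the order was the other way, 4.73 at ligands and 4.12 at receptors, and no alternative was run on that scale. The difference in open promoters, 30.9 percentage points, was 36.2 with the series' IDR-thresholded list, 25.2 with replicated peaks, 15.4 with the upper 50% of regions, 36.3 with a window of 500 bp and 19.9 with one of 2500 bp. Leaving out a replicate gave 25.8 to 31.2. Open ligands numbered 5 and open receptors 11 with the upper 50% of regions, and 16 ligands with 2500 bp. Leaving out a replicate gave 6 to 7 ligands and 17 to 18 receptors. Distal regions numbered 184 at ligands and 211 at receptors with replicated peaks, and 48 and 60 with the upper 50%. Leaving out a replicate gave 50 to 64 and 78 to 87. Receptors had 0.580 more distal regions per gene with replicated peaks and 0.639 more with antagonists among ligands and decoys left out. Leaving out a replicate gave 0.560 to 0.701. Member regions found in both replicates were 50.7% with the own lists and 93.3% with the pseudoreplicated lists. Longer or shorter lists change counts by construction, and other causes were not tested. No paired analysis was possible because there is 1 group. Without read counts, a missing region says that it did not pass the list's threshold, not that the chromatin is closed.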
